A study of Drosophila melanogaster with 23 samples.

Results

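The genes examined were those for the proteins of the cytosolic ribosome in Drosophila, followed in nascent RNA of Kc167 (Kc) cells. Members were the genes of the count table whose FlyBase symbol begins with RpL or RpS, with sta, which encodes the small subunit protein RpSA. The mitochondrial ribosomal proteins (mRpL and mRpS) were left out. This gave 88 genes of the 17659 in the table: 40 of the large subunit, 29 of the small subunit, 3 of the ribosomal stalk, 2 fused to ubiquitin, 12 second copies of a paralog pair and 2 relatives that act in ribosome assembly.

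Every ribosome needs one copy of nearly each of these proteins, and their genes are transcribed strongly in growing cells. In flies most start at a pyrimidine-rich initiator rather than the usual one, carry short introns, and often hold small nucleolar RNAs (snoRNAs) in those introns. Loss of one gene copy gives the slow, thin-bristled Minute flies in many cases.

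neuRNA-seq follows nascent RNA: cells take up 5-ethynyl uridine (0.2 mM, 1 h), and labelled RNA is biotinylated, captured and sequenced. Kc is a line from Drosophila embryos. The question was how transcription changes when AGO2, LaminB or Dcr-2 is depleted. AGO2 is the Argonaute protein of RNA interference. LaminB (gene Lam) forms filaments under the nuclear envelope. Dcr-2 is the nuclease that makes small interfering RNAs. In experiment 1 there were 3 libraries each of mock, of cells given siRNA to AGO2 (AGO2 KD) and of cells given dsRNA to LaminB (LaminB KD). Experiment 2 held 2 libraries each of mock, si5UTR (an siRNA to the 5′ untranslated region of AGO2), si5UTR+AGO2 (that siRNA with a tagged wildtype AGO2 construct) and si5UTR+V966M (that siRNA with the tagged mutant V966M, which lacks target cleavage). Experiment 3 held 3 mock and 3 Dcr-2 KD (dsRNA) libraries. Mock cells were transfected without dsRNA or siRNA, all cells were collected 3 days after transfection, and every group comes from 1 cell line. Nothing in the labels says that replicates were separate cultures, so p-values measure the spread between libraries, which may be technical.

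Each library held between 5215481 and 15641835 counted reads, and the members took 1.18% to 2.60% of them. Levels are given as CPM (a count scaled by the library's size after TMM, edgeR's scaling between libraries) and are comparable only within an experiment, since each was normalised on its own. Genes with an edgeR adjusted p under 0.1 were called. The target gene fell in each knockdown: the log2 fold change was -0.47 for AGO2 in AGO2 KD, -0.91 for AGO2 with si5UTR, -1.63 for Lam in LaminB KD and -0.53 for Dcr-2 in Dcr-2 KD, with edgeR adjusted p between 4.12e-09 and 0.0592. Of 9 blood cell markers, srp, ush, Hml and Pxn had 518 to 2591 CPM over the 23 libraries, and the other 5 had 0 to 53.3 CPM, with NimC1 at 0 in 19 libraries. Of the neuron markers elav had 60.9 to 99.0 CPM, and nSyb and Syt1 at most 4.81 CPM. Of the muscle markers Mef2 had 267 to 571 CPM, Mhc 1.46 to 18.1 CPM and up at most 0.847 CPM. Of the germline markers aub had 13.4 to 47.6 CPM, bam 2.41 to 12.3 CPM, and vas and tej at most 0.918 CPM. The male dosage compensation gene msl-2 had 14.4 to 30.2 CPM.

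The stretch around the transcription start is shown for 7 members because the set shares a feature there that its names did not select for. The windows run from 20 bases before the annotated start to 10 bases from it, on the gene strand, read from the RefSeq Release 6 genome at the start of the canonical Ensembl transcript. Capitals mark the CTTT nearest to the start, where one lies within 10 bases of it on either side. These letters are the core of the pyrimidine initiator, but a match need not be an initiator. In RpS9 the match begins 10 bases before the start.
RpL21: gcaacgctattcaagtagccatCTTTcttt
RpLP1: gcggtcacactgcatatcaactgctCTTTc
RpL23A: ttgacaactgcccctcagttttcCTTTtca
RpL27: tttgccatctctaaaatctccccttCTTTt
RpS9: tttaacctaaCTTTtgccttgcagtgctcg
RpL15: tcgtgtgatccaactcattgcttccttctt
RpL32: ttcttttcgcttctggtttccggcaaggta
These lie at chr2L:22247824-22247853 (minus strand), chr2L:419932-419961 (plus), chr3L:1668645-1668674 (minus), chr3R:25685042-25685071 (minus), chr3L:9511296-9511325 (minus), chr3L:27267236-27267265 (plus) and chr3R:30046131-30046160 (minus) of dm6. CTTT lay within 10 bases of the start on the gene strand in 50 of the 88 members (56.8%), against 1222 of 13743 protein-coding genes (8.89%). The TATA box letters TATAAA, sought on the gene strand in the 50 bases before the start, were found in 1 member (1.14%) and in 10.8% of protein-coding genes. TATCGATA, the core of the DRE element, was sought on both strands from 250 bases before to 50 after the start, and was present in 28.4% of members and 8.83% of protein-coding genes. In the same window and on both strands, GGTCACACT was in 9.09% of members against 5.87%, and the E-box CACGTG in 12.5% against 4.24%. TATCGATA and CACGTG read the same on both strands, no motif contains another, and a match only describes the sequence.

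The members were short and strongly transcribed. Their median gene length was 1315 bp (304 to 4677 bp). Levels between genes are compared as CPM per kb of gene body. The mock mean was taken within each experiment, and these experiment means were then averaged with equal weight. The median was 137 CPM per kb over the 79 members tested, against 13.4 CPM per kb over 8176 protein-coding genes tested, and 71 of the 79 lay among the 10% of those genes with the highest level. RpL21 (chr2L:22247111-22247875) had the highest mean in each experiment, 393, 557 and 396 CPM per kb in experiments 1, 2 and 3. The order below it differed between experiments, whose levels are scaled apart, so the mean of the experiment means (449 for RpL21) gives only a rough rank. RpLP1, a stalk protein that helps recruit elongation factors, had 289, 482 and 329 CPM per kb. RpL15 had 332, 337 and 232 CPM per kb and sta had 252, 442 and 216, so that RpL15 was above RpLP1 in experiment 1 and below both in experiment 2. By the mean of the experiment means most of the remaining tested members lay between RpS28b (287 CPM per kb) and RpS21 (37.0) without a gap. RpL32, known as rp49 and the reference transcript of the study's qRT-PCR, ranked 16 with 219.7 CPM per kb.

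**Figure D1:**
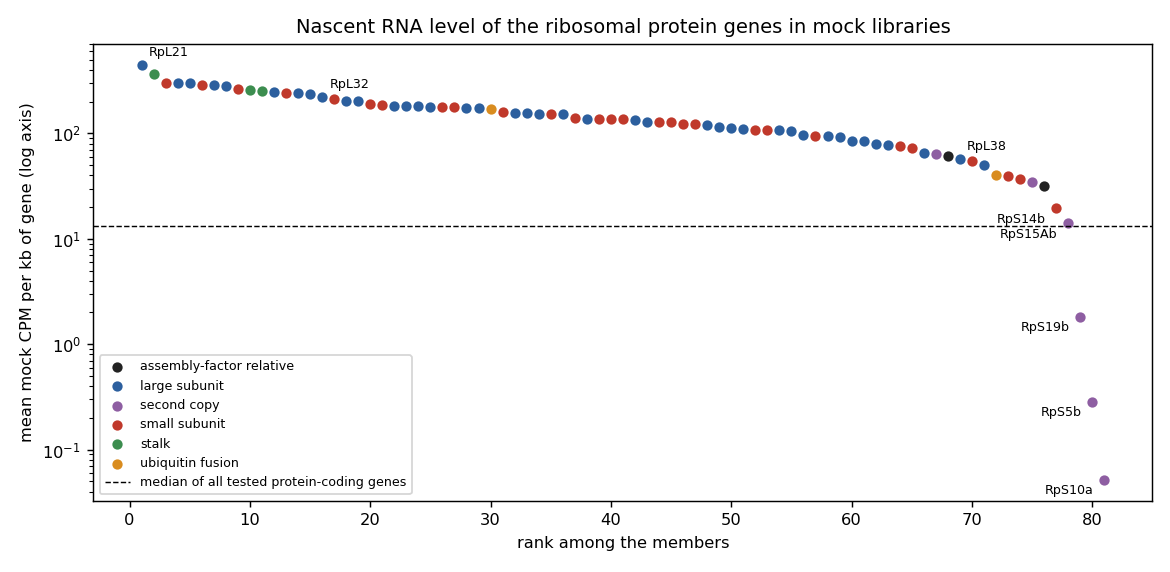
Mean nascent RNA level of each member with any mock read (CPM per kb of gene, log axis) by rank, coloured by class. Levels are means of the experiments' mock means. The dashed line is the median of tested protein-coding genes, 13.4 CPM per kb. Most members form a continuous band above the line, and the second copies RpS15Ab, RpS19b, RpS5b and RpS10a fall away at the right.

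Second copies stood far below the ubiquitous copy of their pair in most cases. RpS19a, a small subunit protein, had 189 CPM per kb in mock and RpS19b, a copy known mainly from the germline, 1.83. RpS15Aa had 54.7 and RpS15Ab 14.1, and RpL34b had 121 against 34.3 for RpL34a. The neighbouring X-linked genes RpS14a and RpS14b went the other way. RpS14a, counted here as the second copy, had 63.7 CPM per kb and RpS14b 19.4. Part of these sequences cannot tell the copies apart: 28.3% of the 50-base windows of RpS14a, 29.7% of RpS14b, 26.1% of RpS15Ab and 9.80% of RpS15Aa occur elsewhere in the genome. Their values are therefore uncertain. RpL34a and RpL34b share no such window.

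Of the 88 members, 79 passed the filter on low counts in every experiment and 9 passed in none. RpL10Aa, RpL7-like, RpS28a and RpS6 had 0 reads in all 23 libraries, and RpL37-2, RpS28-like and RpL22-like had 1, 2 and 2 reads in all. RpS10a had 12 reads and RpS5b, known from the ovary, had 60. A count of 0 allows up to 3 reads, a level of 0.188 to 0.555 CPM depending on the library, as far as counting error goes. RpS6, the small subunit protein phosphorylated by S6 kinase, has to be read apart. Its locus (chrX:7899624-7901331, minus strand) lies for 98.3% of its length under the pseudogene CR33222 on the same strand, which had 14 reads in all, and reads that overlap more than one gene are not assigned by the counter used. RpL27A, RpL31, RpL19, RpS12 and RpS10b were not analysed here, as their current identifiers are not rows of the table. The 71 snoRNA genes inside 27 of the members also had 0 reads each, as did 245 of the 258 snoRNA genes in the whole table. Ip259, which covers 59.8% of RpS27A on its strand, had 0 reads too. Reads in such stretches would be missing from the host's count. RpL22, RpL23A and RpS23 each overlap a non-coding gene on their strand. CR42491 in RpL22 and mir-308 in RpS23 had 0 reads, whereas Uhg7 in RpL23A had 1725 over the 23 libraries. Overlaps were read from a later annotation than the FlyBase release used for counting, so they may differ from those the counter met.

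The members moved as a block between libraries, and the block did not always follow the treatment. The shift of a library is the median over the 79 tested members of log2 CPM (with 0.5 added) minus the mean of these log2 values over the mock libraries of its experiment. In experiment 1 it was 0.15, 0.0073 and -0.14 in mock 1 to 3, -0.056, 0.53 and 0.0050 in AGO2 KD 1 to 3, and -0.16, -0.27 and -0.29 in LaminB KD 1 to 3. All LaminB KD libraries lay below all mock libraries, whereas among the AGO2 KD libraries a single one stood out. In experiment 2 the shift was -0.23 and 0.23 in mock 7 and 8, -0.30 and -0.29 in si5UTR 2 and 3, 0.0014 and -0.30 in si5UTR+AGO2 1 and 2, and -0.19 and -0.25 in si5UTR+V966M 2 and 3. There the single library that stood apart was a control. In experiment 3 mock 10 to 12 gave -0.10, 0.026 and 0.075 and Dcr-2 KD 1 to 3 gave -0.085, 0.024 and 0.056. The same quantity over all genes tested lay near 0 in every library, as the TMM scaling makes it do, so it serves only as a reference. Less RNA per cell cannot be told from fewer cells making it.

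The same was seen gene by gene. AGO2 KD 2 was the highest of the 9 libraries of experiment 1 for 70 of the 79 members, against 8.6% of all genes tested. Mock 8 was the highest of the 8 libraries of experiment 2 for 68 members, against 12.7% of all genes tested. A LaminB KD library was the lowest of experiment 1 for 62 members, against 44.3% of all genes tested. Summed over all members, AGO2 KD 2 held 21207 CPM where AGO2 KD 1 and 3 held 14171 and 15121, and mock 8 held 26194 CPM where mock 7 held 19198. Genes for rRNA took 0.884% of reads in AGO2 KD 2 and 0.623% in mock 8, against 0.416% to 1.69% and 0.561% to 1.54% over the libraries of their experiments. Whether anything in the preparation of AGO2 KD 2 or mock 8 differed was not tested.

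LaminB KD was compared with mock first, since its libraries moved together. The 79 members had a median log2 fold change of -0.24 (quartiles -0.36 and -0.16), against -0.0049 over all genes tested, and 71 had a negative value. Values after a gene are log2 fold changes with their standard error (SE). By edgeR 22 members fell and none rose, against 12.5% of all 8142 genes called lower and 16.7% called higher. A total of 30 of the members had an unadjusted p under 0.05, and DESeq2 called 14 lower and none higher. All 3 LaminB KD libraries lay below all 3 mock libraries for 31 members and above them for 1, against 17.3% and 19.9% of all genes.

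The members that fell came from both subunits, the stalk and the ubiquitin fusions, and none of the 4 second copies or 2 assembly factor relatives tested was among them. Of the large subunit 13 of 40 fell, with a median of -0.26. RpL37A, a small zinc-binding protein of that subunit, had 49.1, 64.3 and 51.2 CPM in mock 1 to 3 and 30.5, 38.3 and 43.9 CPM in LaminB KD 1 to 3, which gave -0.54 (SE 0.164, edgeR adjusted p 0.0268). RpL23A, which lies by the peptide exit, had 567, 517 and 449 CPM against 369.7, 378 and 400.3 CPM, which gave -0.42 (SE 0.1004, edgeR adjusted p 0.00781). The groups did not overlap for either gene. RpL26 (-0.48, SE 0.181, edgeR adjusted p 0.0720) and RpL35 (-0.46, SE 0.165, edgeR adjusted p 0.0580), also near the exit, fell by similar amounts.

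Of the small subunit 7 of 28 tested members fell, with a median of -0.24. RpS24 had 291, 252 and 243 CPM in mock and 206, 180.3 and 165 CPM in LaminB KD, without overlap, which gave -0.51 (SE 0.117, edgeR adjusted p 0.00541). RpS28b (-0.45, SE 0.130, edgeR adjusted p 0.0217) and RpS3A (-0.38, SE 0.111, edgeR adjusted p 0.0209), the one member on chromosome 4, fell too. Of the stalk, RpLP0 fell (-0.31, SE 0.0992, edgeR adjusted p 0.0370), and RpLP1 and RpLP2 had -0.20 and -0.23 without passing the test. Of the 2 proteins made as fusions with ubiquitin, RpS27A fell (-0.46, SE 0.171, edgeR adjusted p 0.0697) and RpL40 had -0.30 (SE 0.144, edgeR adjusted p 0.151).

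**Figure D2:**
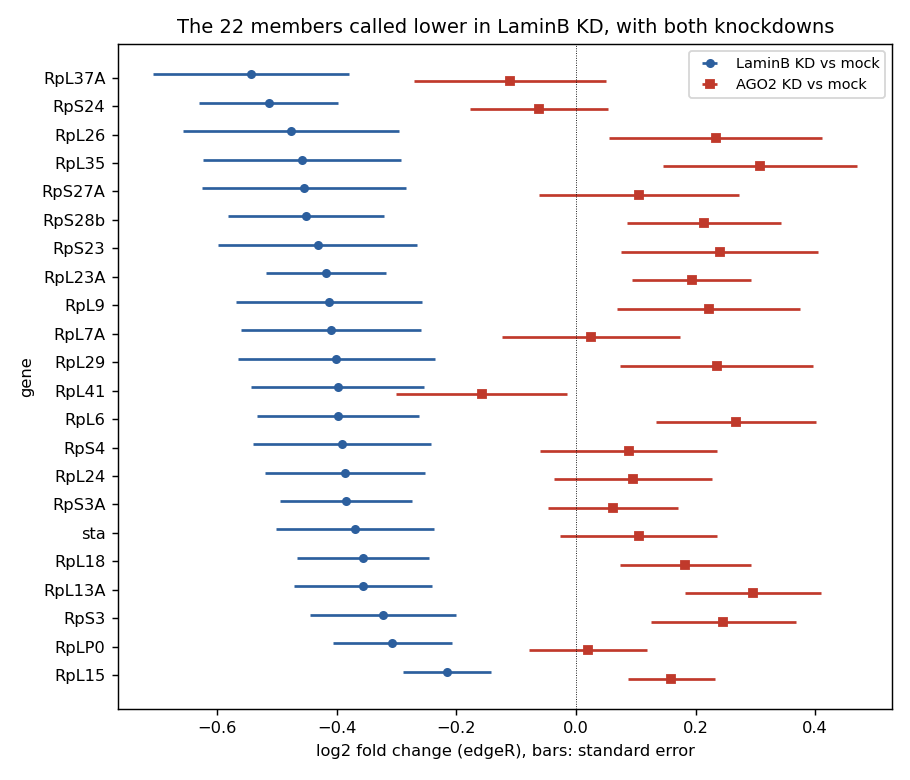
Log2 fold change (edgeR, x axis; bars, standard error) of the 22 members called lower in LaminB KD against mock (circles), with AGO2 KD against the same mock libraries (squares). The LaminB KD values run from -0.54 to -0.22, and 19 of the AGO2 KD values are above 0.

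Members that fell were found with and without each feature that the gene names did not select for. Among the 46 tested members with CTTT near the start 13 fell (median -0.23), and among the 33 others 9 fell (median -0.28). Among 26 snoRNA hosts 7 fell (median -0.29), and among 53 others 15 fell (median -0.24). Medians by chromosome arm lay between -0.20 on X and -0.28 on 3L, with the single gene on chromosome 4 at -0.38. Differences between these subsets were not tested.

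A trend with gene length was present in both knockdowns of experiment 1, and in some mock libraries as well. Across the 8023 genes with a length, deviation from the mock mean rose with gene length in each LaminB KD library (rank correlation 0.249, 0.308 and 0.318, across genes). It did so in the AGO2 KD libraries too (0.219, 0.158 and 0.128), although the median fold change of the members in that group was positive. In the mock libraries of experiment 1 the correlation lay between -0.0962 and 0.135, so that mock 3 was above AGO2 KD 3. In experiment 3 it was 0.196, -0.156 and -0.0603 in mock 10 to 12 and -0.101, -0.153 and -0.195 in Dcr-2 KD 1 to 3. When each library was corrected for a smooth trend with length and GC content, the members' median was -0.13, 63 of 79 were negative and 5 fell, all among the 22: RpL15, RpL23A, RpL37A, RpS28b and RpS3A. Their share, 5 of 79, lay below the 11.8% of all genes called lower in that fit. Leaving out single libraries gave medians from -0.34 to -0.17 and 6 to 36 calls, the fewest without mock replicate 1.

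RpL38 had the highest value of all members in LaminB KD. This large subunit gene, linked in the mouse to translation of Hox mRNAs, lies on arm 2R (chr2R:4515388-4516458). LaminB KD had 49.3, 40.8 and 54.7 CPM of it, AGO2 KD 38.1, 26.8 and 36.8 CPM and mock 36.7, 49.8 and 35.01 CPM. The LaminB KD libraries overlapped mock and lay above all AGO2 KD libraries. Against mock it had 0.26 (SE 0.166, edgeR adjusted p 0.297). RpL5, which binds the 5S rRNA, had 0.092 (SE 0.102, edgeR adjusted p 0.567). RpL39, one of the smallest proteins of the large subunit, had 37.0, 22.1 and 19.4 CPM in LaminB KD against 19.9, 27.0 and 23.5 CPM in mock, and its value of 0.16 came from LaminB KD 1, without which it was -0.18.

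In AGO2 KD the median was 0.19 (quartiles 0.062 and 0.30), and 65 of 79 members were positive. By edgeR 3 members rose and none fell, against 7.92% of all genes called higher and 2.32% called lower, so the share of calls was no larger than among genes in general. RpS9, a small subunit protein at the mRNA entry, had 117, 274 and 262 CPM in AGO2 KD 1 to 3 where mock 1 to 3 had 164, 108 and 111 CPM, which gave 0.77 (SE 0.228, edgeR adjusted p 0.0508). AGO2 KD 2 and 3 were high and AGO2 KD 1 was within the mock range. RpL7, of the large subunit, had 288, 224 and 201 CPM in mock against 227, 443 and 393 CPM, which gave 0.57 (SE 0.180, edgeR adjusted p 0.0653), with the same library low. RpL27 had 209.9, 196 and 181 CPM against 193, 322 and 250.5 CPM, which gave 0.38 (SE 0.131, edgeR adjusted p 0.0969).

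Without AGO2 KD replicate 2 the median of the members was -0.0096, with 38 positive and 41 negative, and no member was called (5 at an unadjusted p under 0.05). Without AGO2 KD replicate 1, in contrast, 28 were called higher and the median was 0.29. The share of all genes called in that fit is not given here. No member was called without AGO2 KD replicate 3, mock replicate 2 or mock replicate 3 either. The groups did not overlap for 1 member, RpS14b, which was higher, against 15.7% of all genes higher and 12.9% lower. DESeq2 also called 3 members higher, and 1 of them, RpL27, was shared with edgeR, while RpS9 and RpL7 were not called. With the correction for length and GC content 5 rose, RpS9 and RpL7 among them and RpL27 not, against 5.63% of all genes.

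Set directly against AGO2 KD, LaminB KD had lower levels of most members. The median was -0.44, 52 of 79 fell and 1 rose, against 10.1% and 10.2% of all genes. RpS9 (-0.90, SE 0.230, edgeR adjusted p 0.0157), RpL35 (-0.77, SE 0.165, edgeR adjusted p 0.00589), RpL36 (-0.76, SE 0.194, edgeR adjusted p 0.0162) and RpL12 (-0.74, SE 0.195, edgeR adjusted p 0.0194) were among those that fell most. RpL36 had 76.2, 76.8 and 76.6 CPM in LaminB KD and 79.2, 179 and 129 CPM in AGO2 KD, the lowest AGO2 KD value lying just above the LaminB KD values. RpL38 was the member that rose (0.51, SE 0.167, edgeR adjusted p 0.0523). Without AGO2 KD replicate 2, 24 fell, none rose and the median was -0.24. The libraries did not overlap for 31 members lower and 1 higher in LaminB KD, against 14.9% and 16.6% of all genes. The comparisons of AGO2 KD and LaminB KD with mock share their mock libraries, so their values are given side by side and not correlated.

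**Figure D3:**
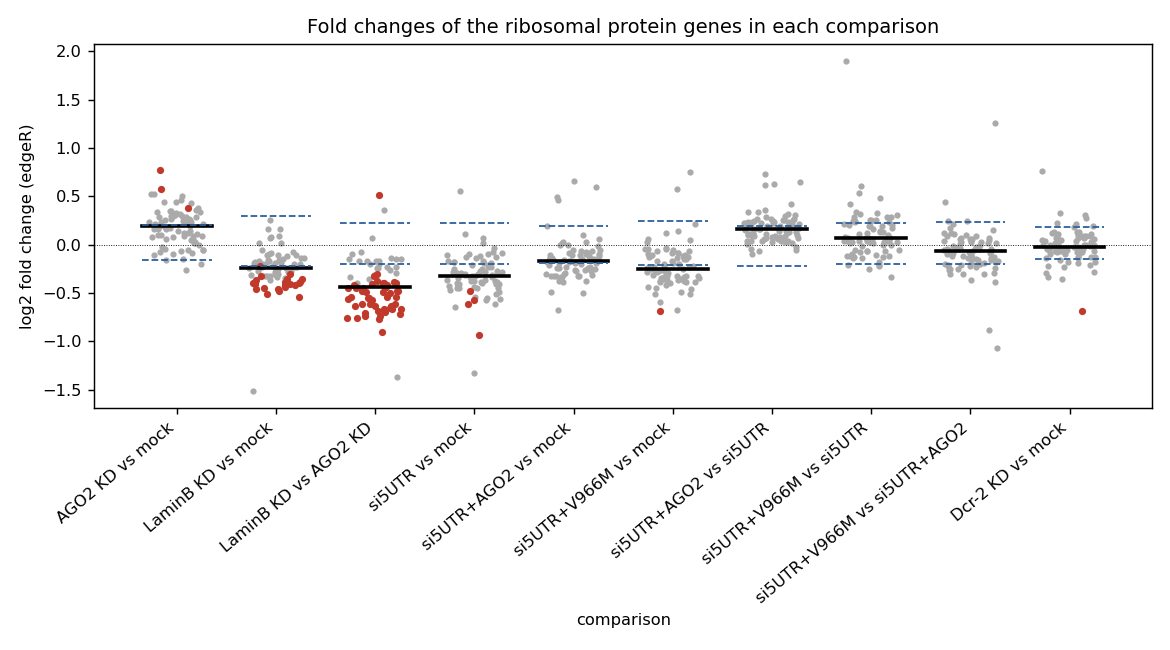
Log2 fold change (edgeR) of the 79 tested members in the 10 comparisons; each point is a gene, red points passed an adjusted p of 0.1, black lines are the members' medians and dashed blue lines the quartiles over all genes tested. The median is lowest for LaminB KD against AGO2 KD (-0.44) and within 0.1 of 0 for Dcr-2 KD (-0.018).

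The comparisons of experiment 2 share their mock and si5UTR libraries. The second AGO2 depletion, si5UTR, gave a median of the opposite sign to that of AGO2 KD. The median was -0.33 and 75 of 79 members were negative. By edgeR 4 fell and none rose, against 0.344% of 8727 genes called lower and 0.882% called higher. With the correction for length and GC content 1 fell, against 0.206% of all genes. Both si5UTR libraries lay below both mock libraries for 40 members and above them for 1, against 19.8% and 20.4% of all genes. RpL23, a large subunit protein at the subunit interface, had 138 and 241 CPM in mock 7 and 8 and 96.0 and 102 CPM in si5UTR 2 and 3, which gave -0.93 (SE 0.202, edgeR adjusted p 0.0211). RpS15 (160.5 and 237 against 124 and 136 CPM) had -0.61 (SE 0.160, edgeR adjusted p 0.0805). RpL41 (169.6 and 251 against 144 and 139 CPM), among the shortest known proteins, had -0.57 (SE 0.155, edgeR adjusted p 0.0983). RpS7 (378 and 515 against 286 and 355 CPM) had -0.48 (SE 0.129, edgeR adjusted p 0.0941).

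In all 4 genes mock 8 was far above mock 7, and mock 7 lay nearer to si5UTR. Without mock replicate 8 the median was -0.050 and 28 members were positive. Without mock replicate 7 the median was -0.54. The median was thus negative with either mock library, and its size depended on which one was kept. Calls in these fits are not weighed here, since a lone mock library is taken to vary as the other groups do.

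The rescue groups were compared with the same mock libraries and with si5UTR. Against mock the medians were -0.17 with si5UTR+AGO2 and -0.25 with si5UTR+V966M. No member was called with si5UTR+AGO2 (9 at an unadjusted p under 0.05, none by DESeq2), where 0.0115% of all genes were called lower and 0.138% higher. Its libraries lay below both mock libraries for 4 members and above them for 3, against 17.6% and 16.8% of all genes. With si5UTR+V966M 1 member, RpL14, fell, against 0.344% of all genes called lower and 0.286% higher, and its libraries lay below mock for 23 members and above for 1, against 19.4% and 18.7%. RpL14 had 171 and 230.2 CPM in mock, 132 and 137 CPM with si5UTR, 164 and 121 CPM with si5UTR+AGO2 and 114 and 135 CPM with si5UTR+V966M, and all 6 siRNA libraries lay below both mock libraries. Its log2 fold change with si5UTR+V966M was -0.69 (SE 0.157, edgeR adjusted p 0.0502). Without mock replicate 8 the medians of the 2 rescue groups were 0.084 and 0.030, with no member called.

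Against si5UTR alone, 74 of 79 members were positive with the wildtype construct (median 0.16) and 56 with the mutant (median 0.067), and none passed the test (6 and 7 at an unadjusted p under 0.05, DESeq2 0 and 1), where 0.103% and 0.103% of all genes were called higher and 0.527% and 0.16% lower. The libraries lay above si5UTR for 20 members and below for 1 with the wildtype, against 17.7% and 18.8% of all genes, and above for 26 and below for 11 with the mutant, against 17.7% and 19.9%. Without si5UTR+AGO2 replicate 1 the first median was 0.00037. RpL23 had 188 and 116 CPM with si5UTR+AGO2 and 150.1 and 152 CPM with si5UTR+V966M, above both si5UTR libraries in each case. Its log2 fold changes against si5UTR were 0.62 (SE 0.203, edgeR adjusted p 0.361) and 0.61 (SE 0.202, edgeR adjusted p 0.353). Between the 2 constructs the median was -0.069 and no member was called (10 at an unadjusted p under 0.05, none by DESeq2), where 0.0802% of all genes were called in each direction. The mutant's libraries lay below the wildtype's for 16 members and above for 3, against 18.4% and 17% of all genes. RpS15Ab (11.3 and 22.8 against 7.76 and 8.46 CPM) and RpS14b (37.0 and 19.3 against 15.4 and 15.2 CPM) had the lowest values, -1.07 and -0.88, each with 1 high library.

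RpL34a stood above mock in experiment 2 where its pair RpL34b did not. RpL34a had 27.5 and 30.3 CPM in mock, 52.1 and 33.2 CPM with si5UTR, 55.8 and 32.03 CPM with si5UTR+AGO2 and 39.8 and 57.3 CPM with si5UTR+V966M. All 6 siRNA libraries were above both mock libraries, with 1 library of each pair closer to mock. The log2 fold changes against mock were 0.56, 0.60 and 0.75, and none passed the test (lowest edgeR adjusted p 0.343). RpL34b had -0.29, -0.26 and -0.27. The other members with a positive value in si5UTR were RpL24-like (0.11) and RpLP0-like (0.023), relatives of assembly factors known from yeast, and RpL22 (0.074), none past the test. Without si5UTR replicate 3 the value of RpL24-like was -0.037.

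**Figure D4:**
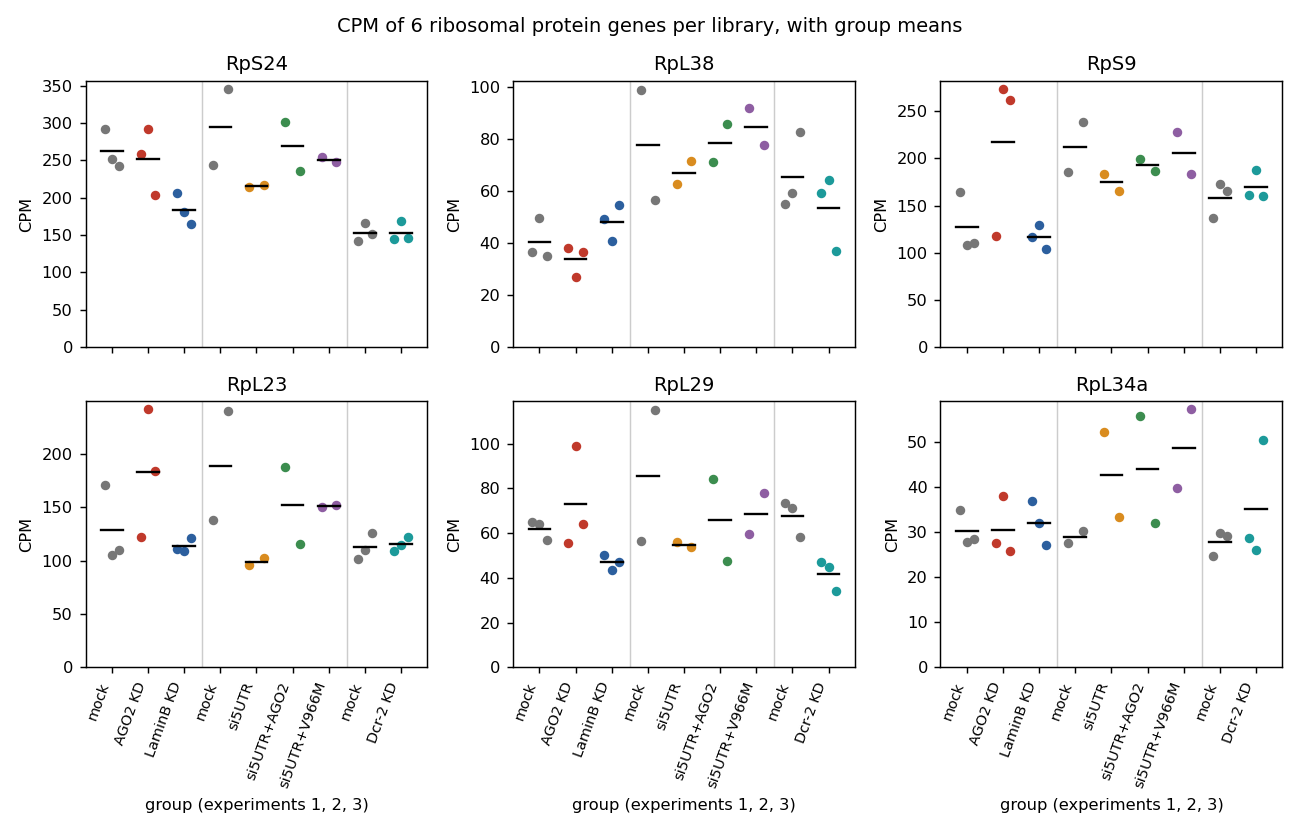
CPM (y axis, from 0) of 6 members in every library (points) with group means (lines), for experiments 1, 2 and 3 from left to right. RpS24 is lower in LaminB KD (165 to 206 CPM) than in mock (243 to 291 CPM), RpL38 is not, RpS9 is high in 2 of 3 AGO2 KD libraries, RpL23 and RpL29 show the high mock 8, and RpL34a is low in both mock libraries of experiment 2.

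In Dcr-2 KD the members had no common direction. The median was -0.018, with 33 members positive and 46 negative. By edgeR 1 member fell and none rose, against 0.634% and 1.38% of 7733 genes. That member, RpL29, a large subunit protein without a bacterial counterpart, had 73.6, 71.2 and 58.5 CPM in mock 10 to 12 and 46.9, 44.8 and 34.1 CPM in Dcr-2 KD 1 to 3, without overlap. Its log2 fold change was -0.69 (SE 0.157, edgeR adjusted p 0.0592), and 3 of the 6 fits without 1 library no longer called it. DESeq2 called no member. The groups did not overlap for 4 members lower and 1 higher, against 9.66% and 9.54% of all genes. RpL39 had -0.35 and RpL36 -0.33, neither past the test.

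The effects themselves were compared across experiments, each against its own mock libraries. Between AGO2 KD and si5UTR, which both deplete AGO2, the members differed by a median of 0.49 on the log2 scale, and 75 of 79 differences were positive. None passed the edgeR test (43 at an unadjusted p under 0.05, DESeq2 5), where 0.0534% of 9357 genes were called higher and 0.0214% lower. The median difference was 0.28 without AGO2 KD replicate 2 and 0.25 without mock replicate 8. No fit left out both libraries. Taken alone, the AGO2 KD median was -0.0096 without AGO2 KD replicate 2, and the si5UTR median was -0.050 without mock replicate 8. Opposite directions of the 2 depletions thus cannot be read from these differences. Between AGO2 KD and Dcr-2 KD the median difference was 0.20, and 2 members passed, against 4.06% of 8531 genes called higher and 0.938% lower: RpL29 by 0.92 (SE 0.235, edgeR adjusted p 0.0324) and RpL36 by 0.84 (SE 0.265, edgeR adjusted p 0.0891). Without AGO2 KD replicate 2 that median was 9.48e-05 and no member passed (6 at an unadjusted p under 0.05).

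RpS19b had the most extreme values and the fewest reads of the tested members, 333 over all libraries. In experiment 1 AGO2 KD had 1.40, 1.06 and 1.73 CPM of it, mock 1.81, 2.53 and 0.305 CPM and LaminB KD 1.01, 0.484 and 0.112 CPM, and in experiment 2 there were 0 reads in mock 7 and 41 in mock 8. Its log2 fold changes, from -1.51 in LaminB KD to 1.91 between si5UTR+V966M and si5UTR, never passed the test. In 4 comparisons of experiment 2 the sign turned when a single library was left out. RpL32, the reference transcript, had 149, 168 and 129 CPM in mock and 142, 114.9 and 113 CPM in LaminB KD of experiment 1, and 231 and 355 CPM in mock of experiment 2. Its log2 fold change was -0.27 (SE 0.169, edgeR adjusted p 0.276) in LaminB KD and -0.28 (SE 0.158, edgeR adjusted p 0.707) with si5UTR, and it passed only in LaminB KD against AGO2 KD (-0.44, SE 0.169, edgeR adjusted p 0.0998).

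Other genes of ribosome production were taken from a list of 34, of which 31 were rows and 28 were tested. In LaminB KD 17 of these fell and 2 rose, with a median of -0.28, against 12.5% and 16.7% of all genes. Fib, the fibrillarin that methylates rRNA, had -0.62 (SE 0.103, edgeR adjusted p 0.000495), and Ns1, a nucleolar GTPase, had -0.64 (SE 0.123, edgeR adjusted p 0.00158). Nopp140, a chaperone of snoRNA particles, had -0.38 (SE 0.0715, edgeR adjusted p 0.00150), and Nop56, a core protein of such particles, had -0.34 (SE 0.109, edgeR adjusted p 0.0387). These 4 were chosen after their values were seen. In AGO2 KD 1 rose and 1 fell with a median of -0.096, against 7.92% and 2.32% of all genes. In Dcr-2 KD 1 rose (median 0.096), against 1.38% of all genes. With si5UTR none was called (median 0.11), where 0.882% of all genes were called higher and 0.344% lower.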

How the data were processed

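Kc167 neuRNA-seq libraries were sequenced as 50 bp single-end, stranded reads. The authors trimmed them with cutadapt 1.10, aligned them to dm6 with HISAT2 2.0.4 and counted reads over whole gene bodies by strand with featureCounts 1.5.0-p3. The deposited values are raw counts, and every column was assigned to a library. Fits were made per experiment, as in the study, with edgeR 4.0.16 (R 4.3.3): TMM normalisation, filterByExpr, a quasi-likelihood test on treatment and Benjamini-Hochberg adjustment over all genes tested, called under 0.1. DESeq2 1.42.0 was an alternative. On data simulated from the libraries with 200 genes changed 2-fold, edgeR recovered 76% in AGO2 KD against mock (8142 genes), 58.5% in si5UTR (8727) and 74.5% in Dcr-2 KD (7733).

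Members and lists were chosen with earlier results of these data known. Named genes were all called members where there were 12 or fewer and otherwise the 5 largest called changes in each direction, the 2 highest and 2 lowest fold changes of each comparison, the 5 highest and 3 lowest mock levels, the 3 most variable, RpL32, paralog pairs and untested members. Others (among them RpL5, RpL15, RpL23A, RpL40, RpS3A, RpS28b and the stalk genes) were named after their values were seen, and some that the rule picks are not reported here. Reads carry no molecular identifiers, so the floor of 3 reads covers counting error only. Replicates differed beyond sampling noise (chi-square per degree of freedom 6.95 to 28.3).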

Additional observations from a re-analysis of the deposited data

Results flagged for a closer look

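Over the 8 mock libraries, 15 of 51 sets of values held a library far from the others. About 1 in 20, or 2.55, would be so by chance if the sets were independent. The members moved together, so the sets were not independent and that figure cannot be used to judge the 15. The mock libraries also come from 3 separately normalised experiments, whose levels are comparable only within an experiment. In 14 of the 15 sets the library was mock 8 and the value was the highest. Its summed level of the members was 26194 CPM, and the next mock library had 19198 CPM. Among large subunit genes mock 8 had 330 CPM for RpL12, 492.7 CPM for RpL21, 254 CPM for RpL26, 334 CPM for RpL27, 114.8 CPM for RpL29, 355 CPM for RpL32, 383 CPM for RpL35, 150.5 CPM for RpL36, 45.7 CPM for RpL39 and 417 CPM for RpL7. Among small subunit genes it had 281 CPM for RpS13, 237 CPM for RpS15 and 372 CPM for RpS19a. The remaining set was RpS5b, with 2.01 CPM in mock 12 and 0.515 CPM in the next library.

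Effects differed between experiments for 2 of 79 members by the edgeR interaction test of AGO2 KD against Dcr-2 KD, each set against its own mock libraries. Over all 8531 genes 4.06% were called higher and 0.938% lower, so the share among members was no larger than among genes in general. The log2 difference was 0.84 for RpL36 and 0.92 for RpL29. Neither was called without AGO2 KD replicate 2.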

How the results depend on the processing

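Counts in this section are of members only and are not set beside shares of all genes. They show how calls move between settings, not whether they exceed the general rate. Without 1 library at a time, members called higher in AGO2 KD numbered 0 to 28 (median -0.0096 to 0.29) and members called lower in LaminB KD 6 to 36 (-0.34 to -0.17). For LaminB KD against AGO2 KD 0 to 1 were higher and 24 to 57 lower (-0.57 to -0.24). Against mock, 0 to 46 were lower in si5UTR (-0.54 to -0.050), 0 to 18 in si5UTR+AGO2 (-0.38 to 0.084), and 0 to 33 lower with 0 to 1 higher in si5UTR+V966M (-0.45 to 0.030). Against si5UTR, 0 to 8 were higher with the wildtype (0.00037 to 0.29) and 0 to 2 with the mutant construct (0.037 to 0.091), and between constructs 0 to 1 were higher and 0 to 6 lower (-0.21 to 0.068). In Dcr-2 KD 0 to 1 were lower (-0.056 to 0.025). Differences of effect passed for 0 to 11 (AGO2 KD and Dcr-2 KD) and 0 to 22 members (AGO2 KD and si5UTR).

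DESeq2 called 14 members lower in LaminB KD (13 of them among the 22), 11 in si5UTR, 5 in si5UTR+V966M and 0 in Dcr-2 KD, 1 higher in si5UTR+V966M against si5UTR, and 5 for AGO2 KD against si5UTR effects. Without a filter on low counts 33 were higher in AGO2 KD, and 51, 27, 2 and 13 lower in LaminB KD, si5UTR, si5UTR+AGO2 and si5UTR+V966M. That setting also called 2 higher for each construct against si5UTR, 1 higher and 1 lower between constructs, and 11 and 44 differences of effect. The length and GC correction gave 5 higher in AGO2 KD, 5 lower in LaminB KD, 1 lower in si5UTR and a median of 0.016 for si5UTR+V966M against si5UTR. With only the 2 groups compared 40, 2 and 0 were lower in LaminB KD, si5UTR and si5UTR+V966M. Total counts as library sizes gave 34 lower in LaminB KD, and TMM without ribosomal protein, rRNA and mitochondrial genes 2 lower in si5UTR. Under an adjusted p of 0.05, 11 and 1 were lower in LaminB KD and si5UTR, 0 were higher in AGO2 KD, 0 were higher and 41 lower in LaminB KD against AGO2 KD, and 0 were lower in si5UTR+V966M and Dcr-2 KD. The cause was not tested.

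Correlations of same-numbered libraries in experiment 1 ran from -0.185 to 0.0559, and between AGO2 KD and LaminB KD each library correlated best with its own number (0.0382 to 0.0559). Mock and AGO2 KD libraries did not pair in this way. The highest value there was 0.190, for mock 1 with AGO2 KD 2, and the lowest -0.185, for mock 1 with AGO2 KD 1. The replicate block called 2 higher in AGO2 KD, 28 lower in LaminB KD and 2 higher in si5UTR+V966M against si5UTR. The block with length and GC correction, chosen after seeing the data, called 5 and 10. In experiment 3, numbered by the deposited lookup table, each library also correlated best with its own number (0.0085 to 0.0877), and 1 member was lower with the block.

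Signs of single genes were followed only for named genes in the comparisons that named them, and other members changed sign as well. Among those named, genes changed sign only when 1 library was left out: RpL39 in LaminB KD (range -0.18 to 0.33), RpL24-like in si5UTR (-0.037 to 0.24), RpS13 in si5UTR+AGO2 against si5UTR (-0.34 to 0.11), RpS14b in si5UTR+V966M against si5UTR (-0.67 to 0.36) and RpL34a in Dcr-2 KD (-0.022 to 0.50). RpS19b, at 0 to 46 reads a library, did so in 4 comparisons. Its range was -2.32 to 5.998 in si5UTR, -7.34 to 6.64 in si5UTR+AGO2, -0.41 to 7.91 in si5UTR+V966M and -6.01 to 1.63 in si5UTR+AGO2 against si5UTR. Its read depth is too low to give it a direction in these comparisons.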
